A study of Mus musculus with 4 samples.

Results

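Peaks of the transcription factor SOX3 at 7 genes of histone H4 were examined in mouse testis at postnatal day 7: Hist1h4a, Hist1h4b, Hist1h4f, Hist1h4h, Hist1h4j, Hist1h4k and Hist1h4n. The genes were chosen by the deposited annotation of peaks common to the replicates, in which they are named as the nearest gene of 8 of the 778 common peaks, Hist1h4n at 2 places. The data came from chromatin immunoprecipitation followed by sequencing (ChIP-seq), in which DNA bound by SOX3 is recovered with an antibody and sequenced. The labels give 3 SOX3 ChIP samples of testis, age P7, strain 129/SvJ, precipitated with a goat antibody to human SOX3 (R&D AF2569), and 1 input sample of the same tissue, age and strain without antibody. The mice descended from a Sox3 null line of mixed background bred to 129/SvJ, and no source used here gives a genotype testis by testis. The series' text calls the ChIP samples independent and from different testes, and whether these came from different animals is not stated. No values of the input were analysed here, so the peaks carry no background beyond what the authors' peak calling used. Peak lists hold no transcript levels, so the labelled tissue could not be checked against its marker genes.

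Histone H4 is a core protein of the nucleosome, where it pairs with histone H3. Its replication-dependent genes are short, lack introns, lie in clusters with the other histone genes and are transcribed while DNA is replicated, giving mRNAs that end in a stem-loop and not in a poly(A) tail. The many H4 genes encode the same or nearly the same protein, and the promoter factor HINFP is known for its binding to H4 promoters. SOX3 belongs to the SOX family, whose members bind short A/T-rich sites in the minor groove of DNA, and in the postnatal testis it is known from spermatogonia.

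The promoters of 6 of the 7 members shared a short element. The windows below show the shared element GGTCCG in capitals with the bases around it, 5′ to 3′ on the coding strand, since it is the sequence the members have in common. Hist1h4a has no such match, and its capitals mark a CCAAT box read on the other strand. Hist1h4m is shown beside Hist1h4n because their windows are the same. Sequences and positions are from RefSeq, GRCm38.p6, and these chromosome positions cannot be set beside the mm9 positions of the peaks.
Hist1h4j (chr13:21734976-21735037, plus strand): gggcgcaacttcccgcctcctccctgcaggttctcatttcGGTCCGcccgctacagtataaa
Hist1h4k (chr13:21750564-21750625, minus strand): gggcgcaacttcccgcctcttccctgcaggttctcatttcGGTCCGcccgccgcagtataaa
Hist1h4n (chr13:21832222-21832283, minus strand): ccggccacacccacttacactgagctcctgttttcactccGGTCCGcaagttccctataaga
Hist1h4m (chr13:21811659-21811720, plus strand): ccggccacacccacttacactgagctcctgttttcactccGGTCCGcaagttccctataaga
Hist1h4h (chr13:23530999-23531060, plus strand): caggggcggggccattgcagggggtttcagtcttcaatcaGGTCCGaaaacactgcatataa
Hist1h4f (chr13:23551693-23551754, minus strand): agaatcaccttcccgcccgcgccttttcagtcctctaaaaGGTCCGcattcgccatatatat
Hist1h4b (chr13:23756903-23756964, plus strand): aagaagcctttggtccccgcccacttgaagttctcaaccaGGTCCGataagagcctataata
Hist1h4a (chr13:23761250-23761311, minus strand): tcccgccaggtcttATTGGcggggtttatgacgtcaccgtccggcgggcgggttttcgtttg

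Exact letters were searched on both strands from 250 bases before to 50 after the annotated start, in a table of 32851 mouse promoters that held 12 of the 13 H4 genes. GGTCCG was found in 6 of the 7 member promoters and in 11 of 12 H4 promoters, against 8.25% of all promoters. It was searched because H4 promoters are known to share it, so its presence is a description of the genes. It began 46 bp upstream of the annotated start in Hist1h4f and Hist1h4n, 32 in Hist1h4k, 18 in Hist1h4j and 5 in Hist1h4h, and 6 bp downstream in Hist1h4b. TATAA, the core of the TATA box that marks many promoters shortly before the start, was in 7 of 7 member promoters and in 24.9% of all promoters. In 5 of the 6 members with GGTCCG it began 15 to 17 bp after the start of that element, while the only such letters of Hist1h4f lay 250 bp upstream. The TATAA next to the element lay 31, 16 and 2 bp upstream of the annotated start in Hist1h4n, Hist1h4k and Hist1h4j, and 12 and 21 bp downstream in Hist1h4h and Hist1h4b. In Hist1h4a the single TATAA lay 41 bp downstream. The annotated starts thus differed in their place relative to these letters. The SOX core letters AACAAT were in 1 member promoter, that of Hist1h4b at 152 bp upstream (10.7% of all promoters). ACAAAG was in 1, that of Hist1h4h at 111 bp upstream (18.7% of all), and with so few members neither share is read as low or high. CCAAT was in the promoter of Hist1h4a alone among the members (37.4% of all). Among the H4 promoters, different motifs overlapped only in Hist1h4b, where the SOX core match shared 1 base with a TATAA match. A match is a description of the letters and no proof of binding, and the absence of one says only that these letters are not in the window. Nor is the window the sequence under the peaks, which was not searched. The common peaks of Hist1h4a, Hist1h4b, Hist1h4f and Hist1h4h began 106.5, 127.5, 123.5 and 86.5 bp downstream of the deposited start. Taking that start as the one used here, these 4 peaks lay past the window, and both SOX core matches lay outside the peaks of their genes.

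The SOX3 peaks lay over the transcribed part of the H4 genes, downstream of the start site. All 8 member peaks had their midpoints 94 to 283 bp downstream of the transcription start site (TSS), with a median of 228 bp by the deposited distances. Among all common peaks 435 of 778 lay downstream, and among 95 non-histone peaks within 1000 bp of a TSS 51 did, with a median of 15 bp. A downstream place was common at other histone genes too. It was found at 8 of 10 H3 peaks, 13 of 16 H2A and H2B peaks and 3 of 3 peaks at linker histone genes. The far ends of the 8 member peaks fell in a stretch of 83 bp, from 376.5 to 459.5 bp downstream. The near ends were spread wider, from −211 bp (upstream) at Hist1h4n to 127.5 bp at Hist1h4b. Only the peaks of Hist1h4j, Hist1h4k and 1 place of Hist1h4n took in the TSS. By member, the deposited distances were 94 bp at Hist1h4n, 182 at Hist1h4k, 186 at Hist1h4j, 206 at the second Hist1h4n place, 250 at Hist1h4f, 269 at Hist1h4h, 280 at Hist1h4b and 283 at Hist1h4a. These distances run from annotated starts that differed in their place relative to the TATAA letters. In Hist1h4h, Hist1h4b and Hist1h4a, which had the largest distances, such letters lay downstream of the start. How far the order of the members follows from this was not tested. The annotation classed 6 of the 8 as exonic, in the single exon of an H4 gene, against 3.21% of all common peaks. Of the rest, that of Hist1h4a was classed at the transcript end of its neighbour Hist1h3a and 1 Hist1h4n peak at the promoter. No member peak was annotated to a repeat.

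**Figure D1:**
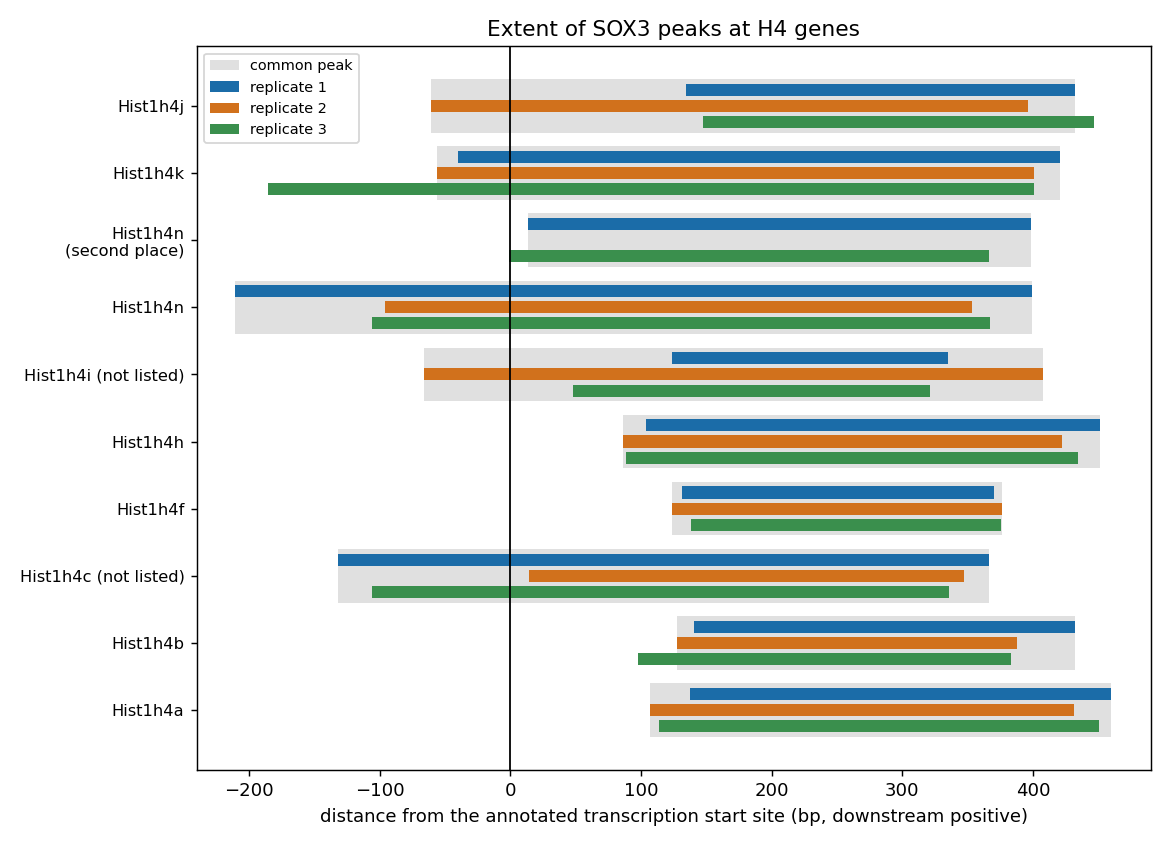
Horizontal bars give the extent of each SOX3 peak in bp from the annotated transcription start site (0, black line) for the 8 member peaks and for Hist1h4i and Hist1h4c; grey is the common peak and colours are the highest-scoring overlapping peak of replicates 1, 2 and 3. The peaks end between 321 and 459.5 bp downstream in every list, while their near ends range from −211 to 147.5 bp.

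The position of a peak repeated closely between testes at most members. At Hist1h4f the midpoints of the replicate peaks lay 251, 250 and 257 bp downstream in replicates 1, 2 and 3 (252.7 ± 3.79 bp, SD, n = 3). Hist1h4h had midpoints at 277.5, 254.5 and 261.5 bp (264.5 ± 11.8 bp, SD, n = 3) and Hist1h4a at 298.5, 269 and 282 bp (283 ± 14.8 bp, SD, n = 3). The midpoints of Hist1h4b were 286.5, 257.5 and 240.5 bp (261.5 ± 23.3 bp, SD, n = 3). In every list the peaks of these 4 genes began past the start. Hist1h4k had midpoints at 190, 172 and 107.5 bp (156.5 ± 43.4 bp, SD, n = 3), with the peak of replicate 3 reaching further upstream than the others. The Hist1h4n promoter peak had them at 94, 128.5 and 130.5 bp (118 ± 20.5 bp, SD, n = 3), and the second place at 206 and 182.5 bp in replicates 1 and 3. Hist1h4n thus lay nearest to the start in replicates 1 and 2, and Hist1h4k in replicate 3. The widest spread was that of Hist1h4j, at 283.5, 168 and 297 bp (249.5 ± 70.9 bp, SD, n = 3). There replicates 1 and 3 each listed 2 peaks close together, of which the stronger was used, while replicate 2 had 1 peak of 458 bp. The weaker peaks, nearer to the TSS, scored 49.4 in replicate 1 and 42.4 in replicate 3. Median width was 376 bp over the common peaks of the members, against 280 bp for all common peaks, 314 bp for the 95 non-histone peaks near a TSS, 337 bp for H2A and H2B peaks and 415 bp for H3 peaks, and the 2 H4 peaks outside the members had 487 bp.

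The peaks at H4 genes recurred in nearly every list. By score they stood in the upper part of each, as the median common peak did. Of the 8 member peaks, 7 were found in all 3 lists, where 29.9% of all common peaks were. Among the 95 non-histone peaks within 1000 bp of a TSS the share was 43.2%. The exception among the members, closest to the limit of 2 lists that a common peak needs, was the second place of Hist1h4n, which had no overlapping peak in replicate 2. The lists held 2912, 2598 and 2734 peaks, with the authors' score starting at 40.02, 40 and 40.02, and the read depth behind them is unknown. The score is the authors' own value and its scale is not named in the sources used here, so each peak was ranked within its list. Peaks of a single list carry no gene name in the deposited data, so H4 genes short of that limit are not given. Since the members were chosen from these same peak calls, their scores are a description, and no test was made of them.

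Hist1h4k had the highest score of the members in each of the 3 lists. Its peak, on chromosome 13 from 21842002 to 21842479 (mm9), scored 115, 172 and 249 in replicates 1, 2 and 3 (178 ± 67.3, SD, n = 3). These scores exceeded those of 93.9, 96.6 and 98.1% of the other peaks of each list. Hist1h4j, its neighbour, stood at place 2 of the members in replicates 2 and 3 and at place 5 in replicate 1. The Hist1h4j peak, from 21826843 to 21827336, scored 61.3, 163 and 109 (111 ± 51.1, SD, n = 3). The 2 genes were close in replicate 2, 8.07 apart, and stood 53.6 and 140 apart in replicates 1 and 3. In replicates 1 and 3 Hist1h4j had 2 peaks, and whether this bears on the gaps was not tested.

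**Figure D2:**
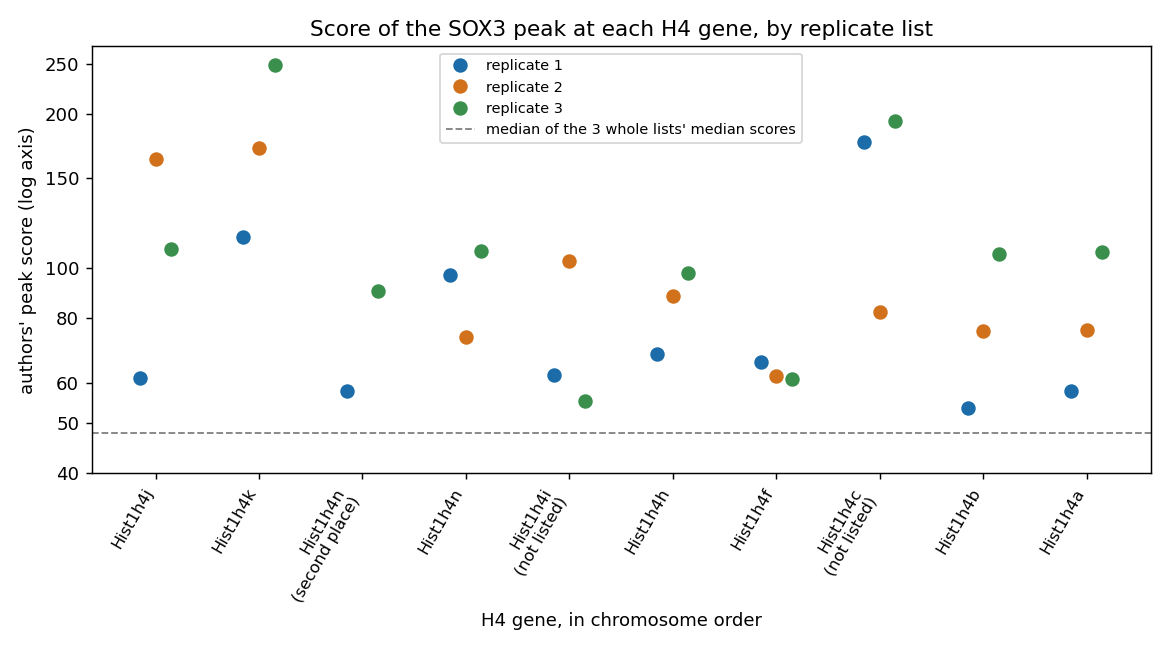
Points give the authors' score (log axis) of the SOX3 peak at each H4 gene in replicates 1, 2 and 3, in chromosome order; the dashed line is the middle one of the lists' median scores, 47.8. Hist1h4k is the highest member in every list, at 115, 172 and 249, Hist1h4f stays between 61.0 and 65.8, and the second Hist1h4n place has no point for replicate 2.

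Hist1h4a and Hist1h4b, which stand next to each other, had close scores in each list, almost the same in replicates 2 and 3. The Hist1h4a peak (23852659 to 23853012) scored 57.8, 75.9 and 107 and the Hist1h4b peak (23848934 to 23849239) 53.6, 75.7 and 107. The differences were 4.21, 0.21 and 0.79 in replicates 1, 2 and 3, while either peak differed far more between testes (80.4 ± 25.1 and 78.7 ± 26.7, SD, n = 3). By percentile within the list, Hist1h4a and Hist1h4b stood at 73.2 and 65.9% in replicate 1. They stood at 86.3 and 86.2% in replicate 2 and at 93.7 and 93.5% in replicate 3. Their promoter windows were the least alike of all H4 pairs, with 43.0% of 300 bases identical. The coding sequences, over which the peaks lie, were not compared here.

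Hist1h4f and Hist1h4h gave peaks of moderate score. Hist1h4f (23643136 to 23643389), the narrowest member peak at 254 bp, scored 65.8, 61.8 and 61.0 (62.8 ± 2.55, SD, n = 3), the smallest spread of the members. Hist1h4h (23623000 to 23623365) scored 68.3, 88.4 and 98.1 (84.9 ± 15.2, SD, n = 3). In replicate 1 Hist1h4h and Hist1h4f held places 3 and 4 of 8, and in replicate 3 places 6 and 8. Hist1h4h was above Hist1h4f in each of the 3 lists, and their ranges did not overlap.

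Replicate 3 held the highest score of 6 of the 8 member peaks, and the exceptions were Hist1h4j, highest in replicate 2, and Hist1h4f, highest in replicate 1. The member scores had a median of 63.5 in replicate 1, 75.9 in replicate 2 and 107 in replicate 3, and their median percentile within the list was 79.6, 86.3 and 93.6%. Scores of at least 100 were found at 1 of 8, 2 of 7 and 5 of 8 member peaks, against 7.66, 7.81 and 7.17% of all peaks of replicates 1, 2 and 3. Those shares are over whole lists and take in peaks found in a single list, which members could not be. The share among common peaks was not counted, so the 2 sides are not alike. Common peaks as a whole had median percentiles of 82.7, 82.7 and 83.8%, so the median member was slightly below that level in replicate 1 and above it in replicates 2 and 3.

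The 2 peaks given to Hist1h4n lay in a mirrored stretch of the cluster. The peak classed at the promoter, from 21923628 to 21924238, scored 97.0, 73.4 and 108 (92.8 ± 17.7, SD, n = 3) and was the widest member peak at 611 bp. The second place, from 21903667 to 21904052, scored 57.8 in replicate 1 and 90.5 in replicate 3. The annotation marks it as a further copy of the same transcript. From left to right the common peaks there were named Hist1h2br, Hist1h2ao, Hist1h4n, Hist1h4n, Hist1h2ao and Hist1h2br. Midpoint spacings of 525 and 1639.5 bp on the left met 1525 and 527 bp on the right, with 20073.5 bp between the Hist1h4n peaks. The H2A gene Hist1h2ao had scores of 111 and 76.8 in replicates 1 and 3 on the left, where, as at the second Hist1h4n place, replicate 2 had no peak, and 112, 41.2 and 76.8 on the right. The H2B gene Hist1h2br scored 64.9, 81.8 and 121 on the left and 64.9, 81.8 and 127 on the right in replicates 1, 2 and 3. Its scores were thus the same at both places in replicates 1 and 2. In RefSeq's GRCm38.p6 the H4 gene next to Hist1h4n is Hist1h4m, which no common peak names. The windows of Hist1h4m and Hist1h4n were identical at 99.3% of 300 bases. Read on the plus strand, the second place had its start 20373.5 bp from that of Hist1h4n by the deposited distances, and in GRCm38.p6 the starts of Hist1h4m and Hist1h4n lie 20451 bp apart. The second place, named Hist1h4n in the deposited table, thus stood about where RefSeq has Hist1h4m.

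Among the 66 pairs of H4 promoter windows only a few were alike, as shown in the map of promoter identity. After Hist1h4m and Hist1h4n came Hist1h4j and Hist1h4k with 91.3%, the members with the 2 highest mean scores over the lists. Hist1h4i shared 68.7% with Hist1h4n and 68.0% with Hist1h4m, and the other 62 pairs 43.0 to 57.0%. Libraries were read as single ends of 50 bp, and how reads that match more than 1 copy were placed is not given here. The part of such reads in the scores of these pairs was not tested.

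**Figure D3:**
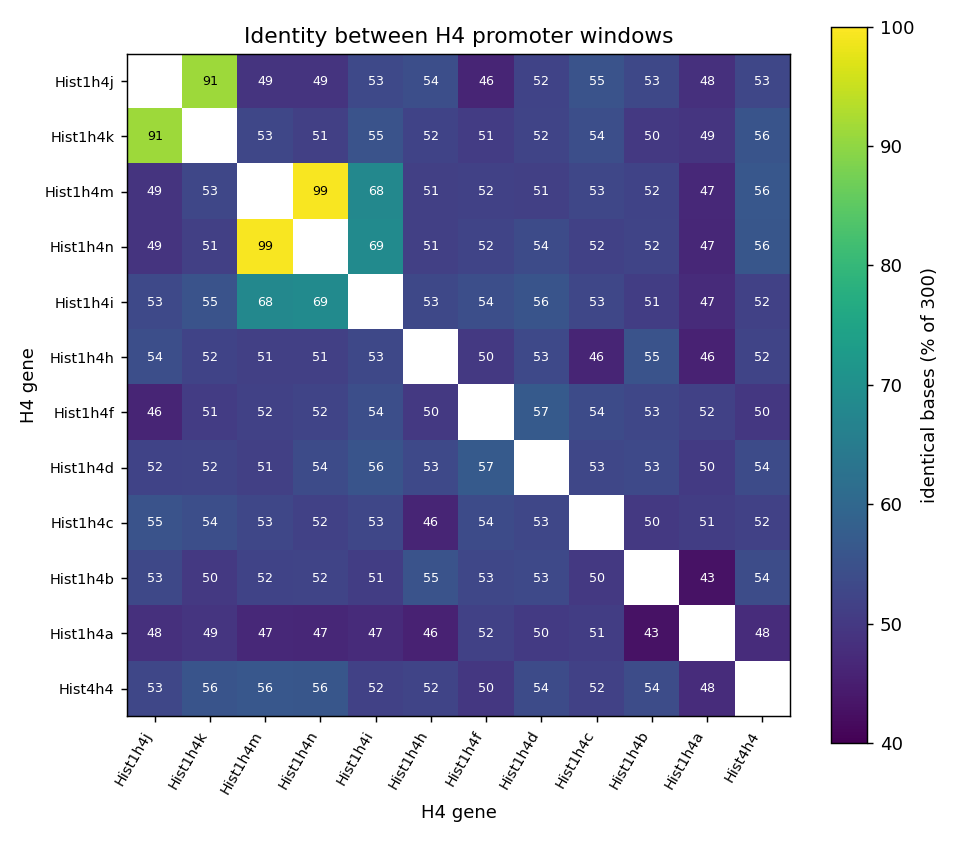
Each cell gives the percent of 300 bases that were identical between the promoter windows (250 bases before to 50 after the annotated start, RefSeq, GRCm38.p6) of 2 H4 genes after global alignment; the diagonal is blank. Hist1h4m with Hist1h4n (99.3%) and Hist1h4j with Hist1h4k (91.3%) stand out from the other pairs.

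Most H4 peaks had other histone peaks close by. Within 10 kb between midpoints, 6 of the 8 member peaks had a further histone peak in the common table, and those of Hist1h4h and Hist1h4j had none. Histone genes lie in clusters, and the same count was not made for peaks of the other families. The share is thus not read as particular to H4. Hist1h4a had the closest, the peak of Hist1h3a, an H3 gene, 1275.5 bp away (23853921 to 23854301). This peak scored 59.3 and 86.7 in replicates 1 and 2, had no overlap in replicate 3, and was itself classed at the promoter of Hist1h4a, whose start lay 802.5 bp from its near edge. Hist1h4f had the linker histone gene Hist1h1d at 3826 bp, with 68.8 and 52.1 in replicates 1 and 3. Hist1h4k had the H2B gene Hist1h2bn at 4015.5 bp, with 56.5 and 74.0 in replicates 2 and 3. Hist1h4b lay between Hist1h3b, at 4682.5 bp, and Hist1h4a, at 3749 bp. Hist1h3b scored 57.6 and 62.9 in replicates 1 and 2 and was absent from replicate 3. Each peak is given to 1 nearest gene, so a peak between neighbours could count for either.

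A pair of H4 genes outside the 7 also had a common peak in all 3 lists. Of the 13 replication-dependent H4 genes, 9 (69.2%) were named at a common peak no more than 5000 bp from the TSS, as were 0.712% of protein-coding genes. The 7 members were chosen because common peaks name them, so this share is a description. The 2 outside the members were Hist1h4c and Hist1h4i. Hist1h4c (23789961 to 23790459) scored 176, 82.2 and 193 with its midpoint 117 bp downstream, above every member but Hist1h4k in replicate 3 and above all of them in replicate 1. Hist1h4i (22132823 to 22133297) scored 61.9, 103 and 55.1, 171 bp downstream, and was the lowest H4 peak of replicate 3. Hist1h4d, Hist1h4m, Hist2h4 and Hist4h4 were named at no common peak, but the second Hist1h4n place stood about where RefSeq has Hist1h4m. The promoters of Hist1h4d, Hist1h4m and Hist4h4 held GGTCCG too, and Hist2h4 was not in the promoter table.

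The H4 peaks were set beside those of the other core histone families by class, position and the lists that held them, and none of these differences was tested. Of 10 common peaks at H3 genes, 5 were in all 3 lists, and of 16 at H2A and H2B genes, 9 were. Replicate 3 held 8 of 8 member H4 peaks, 16 of 16 H2A and H2B peaks and 5 of 10 H3 peaks. The 5 H3 peaks it lacked were the 5 on chromosome 13, among them the neighbours Hist1h3a and Hist1h3b, each present in replicates 1 and 2. Exonic class was given to 6 of 8 member H4 peaks, 2 of 10 H3 peaks and 1 of 16 H2A and H2B peaks, of which 14 were classed at promoters. All 3 peaks at linker histone (H1) genes were exonic too, 136 to 259 bp downstream. Class need not follow the named gene. Both Hist1h2br peaks, 373 bp downstream of its start, were classed at a promoter, on the right that of the transcript which also classed the Hist1h2ao peak. The median TSS distance was 228 bp for the members, 173.5 bp for H3 and 152.5 bp for H2A and H2B, where distances ranged from −311 to 373 bp. For the 5 H3 peaks on chromosome 13 alone the median distance was 216 bp, near that of the members. Percentiles overlapped between families in each list, with medians of 79.6, 86.3 and 93.6% for the members, 87.4, 83.3 and 94.7% for H3 and 91.3, 87.9 and 88.5% for H2A and H2B. The 5 H3 peaks on chromosome 13, the chromosome of all members, had lower medians of 72.7 and 78.7% in replicates 1 and 2.

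**Figure D4:**
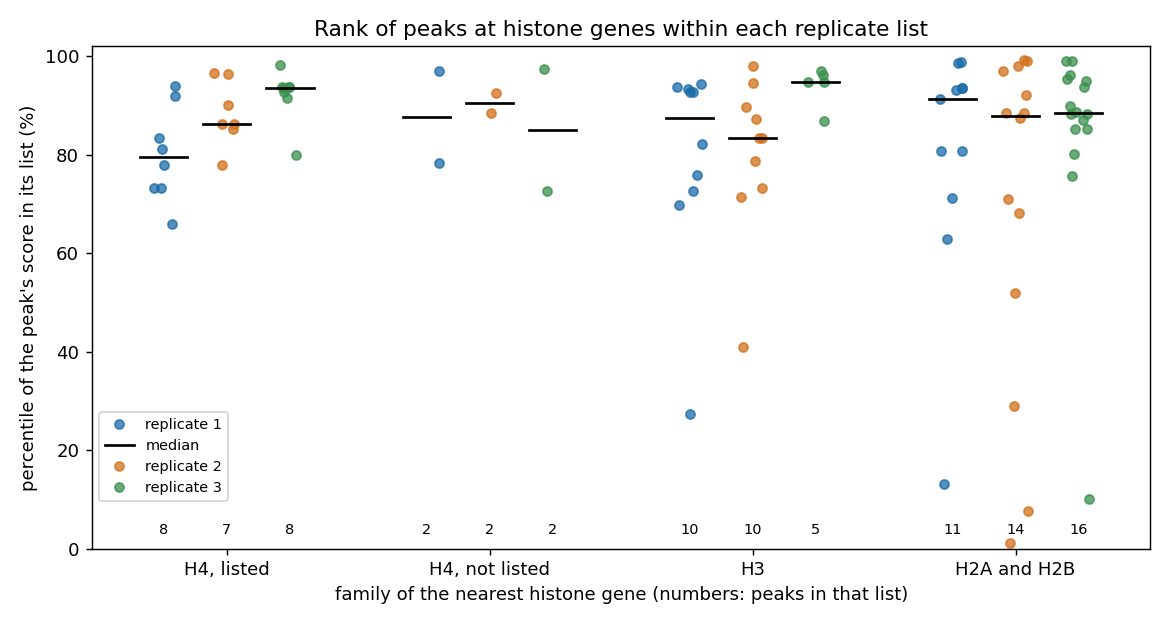
Points give the percentile of a peak's score within its replicate list for common peaks nearest to H4, H3 and H2A or H2B genes, with black bars at the medians and the number of peaks at the foot. Member H4 peaks lie between 65.9 and 98.1% and overlap with the other families in every list, and the H3 column of replicate 3 holds 5 peaks where the other H3 columns hold 10.

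The common peaks outside the H4 family most like the members were those of an H2B neighbour. Likeness was the distance between the within-list percentiles of a peak in the 3 lists and the median member, at 79.6, 86.2 and 93.6% with an absent peak taken as 0. Both peaks of Hist1h2br, in the mirrored stretch of Hist1h4n, came first (distances of 2.84 and 3.11 percentile points, over 3 lists). An intergenic peak at −2362 bp from the TSS of Lysmd2 (6.19) and an intronic peak of Utrn, the utrophin gene (9.35), followed.

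Genes that regulate histone genes or handle H4 protein were counted in the same table. Of 30 such genes, 1 was named as the nearest gene, counted with no limit on distance. The 30 included the histone gene activator Npat, the H4 promoter factor Hinfp, the stem-loop binding protein gene Slbp and the H4 acetyltransferase gene Hat1. With a limit of 5000 bp from the TSS, 156 of 21900 protein-coding genes (0.712%) had a common peak. The peak of the named gene lay within that limit too, but with 1 gene the share is not read as high or low. The named gene was Kmt5b, listed as Suv420h1, which encodes a methyltransferase of H4. Its peak, on chromosome 19 from 3767960 to 3768195 in a 5′ UTR, 656 bp downstream of the TSS, scored 60.3 and 71.0 in replicates 1 and 2 and was absent from replicate 3.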

How the data were processed

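For each of 3 SOX3 ChIP samples a peak list was used, together with the authors' table of 778 common peaks. Per the submitters' processing notes, the tool was Bowtie2 2.0.0 and the build mm9. Peak names begin with MACS per the deposited lists, 1 list per sample, and no source used here gives the caller's version or settings. The score in column 5 of the lists is the authors' own value. The common table's deposited score, 0 throughout, was left out. Distance to TSS, class and nearest gene are from HOMER's annotatePeaks.pl, per the file headers, run on peaks found in at least 2 samples.

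A common peak took the highest-scoring replicate peak that overlapped it by at least 1 bp. Percentiles are the share of a list's other peaks with a lower score. Replicate midpoints were placed from the TSS by the deposited distance and the strand in RefSeq's promoter table (GRCm38.p6), and the second Hist1h4n place was read on the plus strand, as the mirror of the first. Start positions derived in this way were spaced as in RefSeq to within 77.5 bp in 4 pairs. Promoters were aligned globally with Biopython 1.88 (match 2, mismatch −1, gap opening −4, extension −0.5, free end gaps). Tables were joined with pandas 2.3.3. The overlap and motif steps were tested on simulated data. Positions are 1-based.

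The members, gene lists and motifs were chosen with earlier results of these data known. No test was run, since the members were selected on the same peak calls and peaks of 1 list are not replicates. SDs are over the 3 lists and measure the spread between samples, which may be technical. Genes named are the 7 members, other H4 genes with a common peak, histone peaks within 10 kb of a member, the 5 peaks most alike in percentiles (1 of them is not reported here), and those of 30 histone regulators that the common table names, beside 4 of the list given as examples. H4 genes without a peak are named as a count of 5 or fewer. The Hist1h3a and Hist1h3b comparison with replicate 3 was chosen after its values were seen.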

Additional observations from a re-analysis of the deposited data

How the results depend on the processing

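Of 33 alternatives, 26 stayed within the limits set for counts and medians, 7 were counted as moved and 0 turned a direction. A value within the limits could still change, as the values below show. The members in all 3 lists numbered 7 under a reciprocal overlap of 50%, 5 with replicate peaks of a score of 60 or more, and 7 to 8 in the remaining lists when a replicate was left out. The median member score was 82.7, and 72.6 to 91.5 without a replicate. The 9 H4 genes with a common peak stayed 9 under each of the 6 alternatives. Without the second Hist1h4n place, chosen after seeing the data, 7 of 7 peaks were in all lists, and with Hist1h4c and Hist1h4i added 9 were.

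The median TSS distance of 228 bp moved to 264, 250 and 249 bp with the midpoints of the peaks of replicates 1, 2 and 3, and to 250 bp with the peaks in all 3 lists, against a spread of 8.61 bp between lists. The median width of 376 bp became 358 bp for the highest-scoring replicate peak. On the coding strand alone CCAAT was in 0 member promoters, and upstream of the start alone TATAA was in 4 and GGTCCG in 4 of 7. Depth is unknown, so a missing peak, as at the second Hist1h4n place in replicate 2, shows only that none was called. No paired analysis was possible because only the SOX3 ChIP group has replicate numbers.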
